A study of Mus musculus with 18 samples.

Results

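Gpx1 encodes the cytosolic glutathione peroxidase. Its row was taken from the 3 tables of RPKM values (reads scaled by the length of the counted stretch and by the library's mapped reads) for mRNA, for ribosome footprints 5' of the UGA selenocysteine codon and for footprints 3' of it. Gpx1 is 1 gene of the 23 selenoprotein genes in those tables, and it was measured in all 18 libraries. The enzyme reduces hydrogen peroxide with glutathione, and it has selenocysteine in its active site. Selenocysteine is inserted at a UGA codon, which otherwise ends translation, and this needs a hairpin in the 3' untranslated region, the SECIS element, together with a transfer RNA dedicated to selenocysteine. Secisbp2 encodes the protein that binds the SECIS element and Trsp encodes that transfer RNA. Gpx1 mRNA is known in liver as one of the selenoprotein mRNAs that fall most readily when selenium is short.

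The livers came from male mice of 5 to 8 weeks. Knockout mice were Alb-Cre; Secisbp2fl/fl or Alb-Cre; Trspfl/fl, and the controls were matched male littermates with wild type alleles in each colony. The Alb-Cre transgene is driven by the albumin promoter and deletes the floxed gene in hepatocytes, so the other cells of the liver keep it. Ribosome profiling (ribo-seq) and sequencing of polyA RNA (rna-seq) each had 2 knockout and 2 wild type libraries from the Secisbp2 colony and 2 knockout and 3 wild type libraries from the Trsp colony, while the labels state 3 mice per background. In whole liver, fewer cells of a type and less RNA per cell cannot be told apart.

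The libraries held 5065579 to 20645294 mapped reads for ribo-seq and 6522357 to 36510084 for rna-seq, as recovered from the steps of the RPKM values. The tables cover selenoproteins alone, so that neither the loss of Secisbp2 or Trsp nor markers of hepatocytes and other liver cells were analysed here. By the library codes in the labels there were 3 sets of libraries, namely those of Secisbp2 wild type, those of Secisbp2 knockout, and those of the Trsp colony. Secisbp2 genotype and library set therefore cannot be told apart, whereas the Trsp comparison lies within a set. In 1 footprint library, Trsp wild type replicate 2, Gpx1 stood apart, with 4339.6 RPKM 5' of the UGA against 1275 and 1020.0 RPKM in the other two of its group. Trsp footprint changes and differences between knockout effects are given with and without it. All 4 groups share an estimate of the spread, so this library also enters the SE and p-values of the Secisbp2 footprint tests.

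Gpx1 mRNA was lower in both knockouts, by 6.24-fold without Secisbp2 and by 6.76-fold without Trsp. These were the largest falls among the 20 mRNAs tested in either comparison. Without Secisbp2 the mRNAs of Dio1 and Selenop came close, with log2 changes of -2.54 and -2.42 beside -2.64 for Gpx1. Without Trsp they changed by -1.17 and -1.61, beside -2.76 for Gpx1. In Secisbp2 wild type livers the mRNA stood at 2011 and 2030.2 RPKM, and in Secisbp2 knockout livers at 367 and 285 RPKM. Trsp wild type livers had 2079, 1975 and 2184 RPKM, and Trsp knockout livers had 298 and 316 RPKM. All 4 knockout libraries lay below all 5 wild type libraries, and 6724 to 55675 reads stood behind each value. The means in descending order were 2079 ± 105 RPKM (SD, n = 3) in Trsp wild type, 2020.4 ± 13.9 RPKM (SD, n = 2) in Secisbp2 wild type, 326 ± 58.1 RPKM (SD, n = 2) in Secisbp2 knockout and 307 ± 12.5 RPKM (SD, n = 2) in Trsp knockout. Within each genotype the ranges of the 2 colonies overlapped.

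The log2 change of Gpx1 mRNA was -2.64 in the Secisbp2 comparison (SE 0.135, limma adjusted p = 3.82e-07) and -2.76 in the Trsp comparison (SE 0.124, limma adjusted p = 1.23e-07). These calls have to be read against a table in which most genes moved: 14 of the 20 mRNAs tested passed in the Secisbp2 comparison (70%) and 15 in the Trsp comparison (75%). The knockout effects differed by 0.12 (95% interval -0.30 to 0.53, limma adjusted p = 0.574), a test that 70% of the mRNAs passed. Wild type livers of the 2 colonies differed by -0.04 (SE 0.124, limma adjusted p = 0.871), where 45% of the mRNAs passed. With the 4 knockout libraries set against the 5 wild type libraries, the difference was -2.70. The exact two-sided permutation p was 0.0159, the smallest that 126 arrangements can give, and 0.0212 after adjustment over 4 measures. This test took the 2 knockouts as 1 condition and shuffled libraries across colonies and library sets. It therefore does not account for colony or set, here or for the measures below.

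Despite this fall, Gpx1 remained a major selenoprotein message. It ranked 1st or 2nd of the 23 mRNAs by RPKM in every wild type library, 1st in both Secisbp2 knockout libraries and 3rd in both Trsp knockout libraries. Its share of the summed selenoprotein mRNA RPKM was 34.8% to 38.8% in wild type livers, 20.5% and 22.7% without Secisbp2, and 13.3% and 14.5% without Trsp. The share is relative to the other selenoprotein mRNAs, which changed as well.

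**Figure D1:**
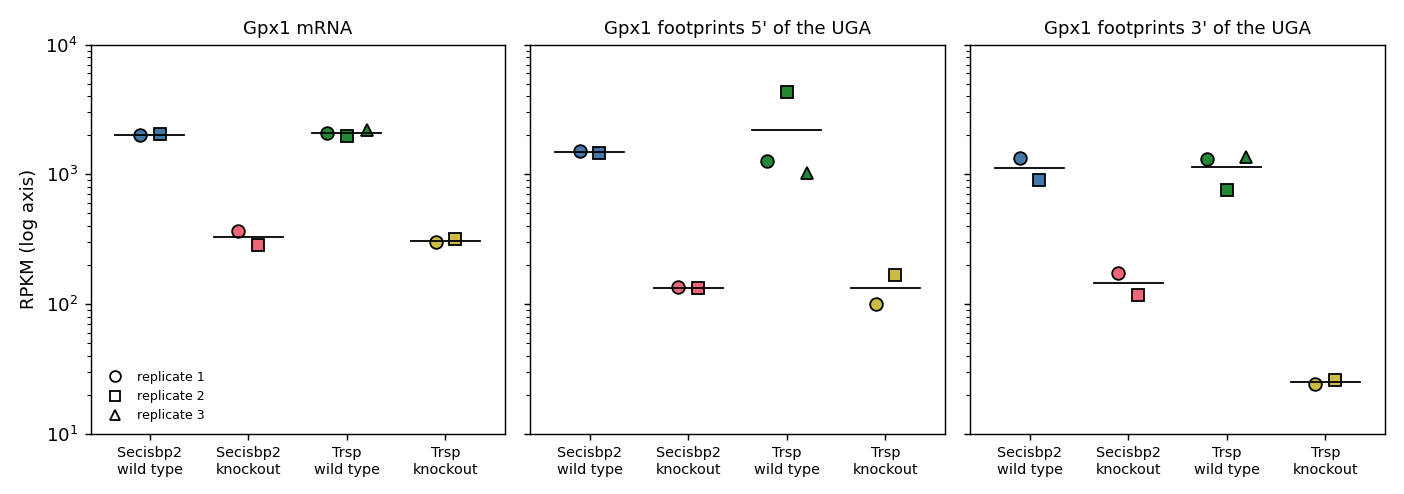
Gpx1 in each library as RPKM on a log axis for mRNA, footprints 5' of the UGA and footprints 3' of the UGA, with a symbol per replicate number and a line at each group mean. Knockout libraries lie below wild type libraries in all 3 panels, and Trsp knockout footprints 3' of the UGA, at 24.4 and 26.0 RPKM, lie below those of Secisbp2 knockout, at 173 and 117 RPKM.

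Footprints 5' of the UGA come from ribosomes that have begun the Gpx1 reading frame and have not yet met the selenocysteine codon. The smallest counted stretch that makes the reads whole numbers is 108 nt, or 36 codons. Secisbp2 wild type libraries had 1508 and 1458 RPKM there, and Secisbp2 knockout libraries had 135 and 133 RPKM, from 286 and 297 reads. Trsp wild type libraries had 1275, 4339.6 and 1020.0 RPKM, and Trsp knockout libraries had 99.8 and 168 RPKM, from 63 and 146 reads. The counting error of the Trsp knockout values was a 95% exact Poisson interval of 76.7 to 128 RPKM and of 142 to 197 RPKM. All knockout libraries again lay below all wild type libraries.

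The 5' density fell by 3.46 on the log2 scale without Secisbp2 (SE 0.632, limma adjusted p = 0.00281) and by 3.78 without Trsp (SE 0.577, limma adjusted p = 0.000945), or 11.0-fold and 13.7-fold. Of the 20 genes tested, 45% passed in the Secisbp2 comparison and 60% in the Trsp comparison, and Gpx1 had the lowest value in both. In the Secisbp2 comparison Dio1 came close, at -3.41 (SE 0.282). The gap between Dio1 and Gpx1 there was smaller than the SE of either gene. Without Trsp wild type replicate 2 the Trsp change of Gpx1 came to -3.13 (limma adjusted p = 0.000189). The Secisbp2 change of Gpx1 stayed at -3.46, with an SE of 0.272 (limma adjusted p = 0.00012). The knockout effects differed by 0.31 (95% interval -1.68 to 2.31, limma adjusted p = 0.804), where 55% of the genes passed. That difference changed sign to -0.33 without the same library (limma adjusted p = 0.531). Between the wild type groups the value was -0.26 (limma adjusted p = 0.732), where 15% of the genes passed. Knockout against wild type over both colonies gave -3.65 (exact permutation p = 0.0159, adjusted 0.0212).

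Relating the 5' density to the mRNA asks whether ribosomes on the start of the reading frame fell further than the message. Divided by its group's mean mRNA, the 5' density was 0.747 and 0.722 in Secisbp2 wild type and 0.413 and 0.408 in Secisbp2 knockout. It was 0.613, 2.09 and 0.490 in Trsp wild type and 0.325 and 0.546 in Trsp knockout. The Secisbp2 groups did not overlap, while the Trsp groups did. Neither difference passed the test, which compared the assays over all 18 libraries. The log2 change was -0.82 without Secisbp2 (95% interval -2.33 to 0.68, limma adjusted p = 0.573) and -1.02 without Trsp (95% interval -2.39 to 0.35, limma adjusted p = 0.329). Without Trsp wild type ribo-seq replicate 2 the Trsp value was -0.38 (limma adjusted p = 0.524). That library also entered the shared spread behind the Secisbp2 interval. Few genes passed here at all, 5% of 20 in the Secisbp2 comparison and 10% in the Trsp comparison. The knockout effects differed by 0.20 (limma adjusted p = 0.880), where limma called 0 of the 20 genes (0%) and 5 had an unadjusted p under 0.05. The wild type groups differed by -0.22 (limma adjusted p = 0.913), where 10% of the genes passed.

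Footprints 3' of the UGA come from ribosomes that have read past the selenocysteine codon, and here the knockouts parted. The smallest stretch that makes the reads whole numbers is 449 nt. Secisbp2 wild type libraries had 1338 and 906 RPKM and Secisbp2 knockout libraries 173 and 117 RPKM, the latter from 1529 and 1086 reads. Trsp wild type libraries had 1324, 751 and 1373 RPKM, whereas Trsp knockout libraries had 24.4 and 26.0 RPKM, from 64 and 94 reads. The 95% exact Poisson intervals of the Trsp knockout values were 18.8 to 31.1 RPKM and 21.0 to 31.8 RPKM. The 3 levels did not overlap: wild type was highest, Secisbp2 knockout lay between, and Trsp knockout was lowest. The wild type means, 1149 ± 346 RPKM (SD, n = 3) in the Trsp colony and 1122 ± 305 RPKM (SD, n = 2) in the Secisbp2 colony, differed by less than their spread. Secisbp2 knockout kept 13.0% of its wild type mean, and Trsp knockout kept 2.19%.

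On the log2 scale the 3' density changed by -2.94 without Secisbp2 (SE 0.397, limma adjusted p = 5.53e-05) and by -5.43 without Trsp (SE 0.363, limma adjusted p = 1.36e-07), or 7.70-fold and 43.2-fold lower. Of 12 genes tested, 75% passed in the Secisbp2 comparison and 83.3% in the Trsp comparison. Gpx1 was the 3rd lowest of the 12 in the first and the 2nd lowest in the second. The test of the difference between the knockout effects passed, at 2.49 (SE 0.538, 95% interval 1.30 to 3.68, limma adjusted p = 0.00508). Only 25% of the genes passed that test. Wild type livers of the 2 colonies differed by -0.01 (SE 0.363, limma adjusted p = 0.975), where 25% of the genes passed. Knockout against wild type over both colonies gave -4.19 (exact permutation p = 0.0159, adjusted 0.0212).

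In rank, Gpx1 was 1st or 2nd of the 23 genes by 3' density in every wild type library and 1st in both Secisbp2 knockout libraries. It was 4th and 3rd in the Trsp knockout libraries. Its share of the summed selenoprotein 3' density was 33.6% to 47.7% in wild type, 34.8% and 30.4% in Secisbp2 knockout, and 7.63% and 9.41% in Trsp knockout. No 3' stretch could be derived for Dio2, Dio3, Selenok, Selenoo, Selenos, Txnrd1, Txnrd2 and Txnrd3. Neither rank nor share by 3' density therefore sets Gpx1 against these genes. For the 5' density the share was 8.40% and 10.5% in Secisbp2 knockout and 4.74% and 7.15% in Trsp knockout.

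The ratio of 3' to 5' density within a library sets ribosomes past the UGA against those before it, and library size and mRNA level cancel in it. It is not the share of ribosomes that continue past the UGA, since some values exceed 1. The 2 densities come from stretches of different length and position. It was 0.887 and 0.621 in Secisbp2 wild type, and 1.29 and 0.880 in Secisbp2 knockout. The Secisbp2 groups overlapped narrowly, with the knockout mean the higher. It was 1.04, 0.173 and 1.35 in Trsp wild type, and 0.244 and 0.155 in Trsp knockout. Among Trsp wild type libraries, replicate 2 fell inside the knockout range, and replicates 1 and 3 lay above it. The 95% exact binomial intervals of the Trsp knockout values, 0.170 to 0.352 and 0.118 to 0.202, both overlapped the 0.163 to 0.183 of that wild type library.

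With all libraries, the ratio's log2 change was 0.52 without Secisbp2 (95% interval -1.70 to 2.74, limma adjusted p = 0.717) and -1.66 without Trsp (95% interval -3.69 to 0.37, limma adjusted p = 0.103). Neither passed, while 25% and 75% of the 12 genes tested did. The shared spread behind both intervals includes Trsp wild type replicate 2. The difference between the knockout effects was 2.18 (95% interval -0.83 to 5.19, limma adjusted p = 0.224), where 33.3% of the genes passed. It was not particular to Gpx1, which ranked 8th from the lowest of the 12 genes. Their median was 1.42, with 4 called higher and 0 lower. Dio1 at 2.89 and Selenop at 2.30 passed (limma adjusted p = 0.0012 for each). Leaving out Trsp wild type replicate 2 brought the Trsp change of Gpx1 to -2.58 (SE 0.392, limma adjusted p = 0.000904). The Gpx1 difference came to 3.10 (SE 0.555, limma adjusted p = 0.00243), and both were past the threshold. The remaining Trsp wild type mean was then 1.19 ± 0.217 (SD, n = 2), against 0.200 ± 0.0633 (SD, n = 2) in the knockout. The wild type groups differed by 0.25 with all libraries (limma adjusted p = 0.848), where 8.33% of the genes passed. Knockout against wild type over both colonies gave -0.54 with overlapping groups (exact permutation p = 0.587), a value that pools the changes of 0.52 and -1.66.

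**Figure D2:**
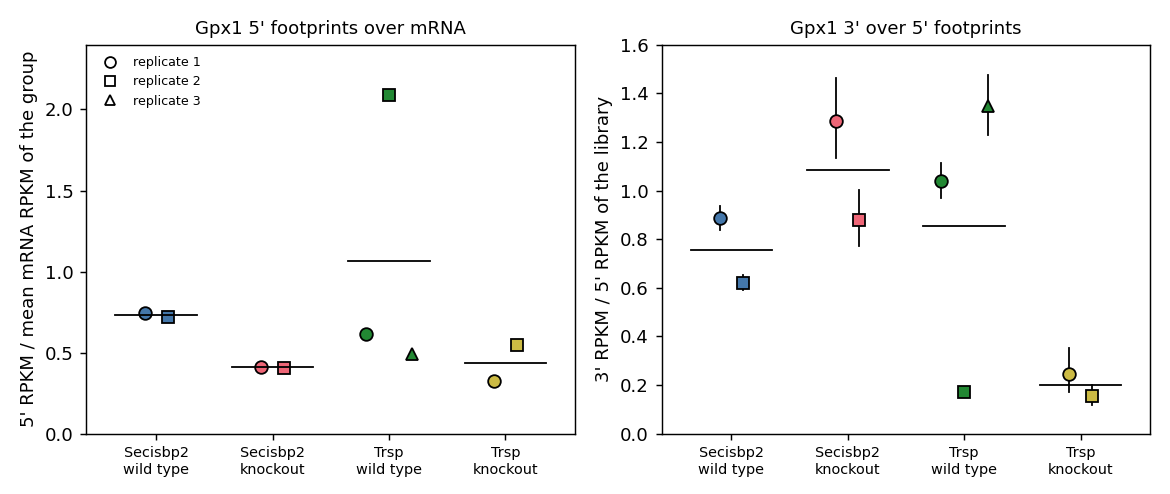
Gpx1 5' density over the group's mean mRNA (left) and 3' over 5' density in the same library (right, with 95% exact binomial intervals), with a symbol per replicate number and a line at each group mean. Trsp wild type replicate 2 is high on the left at 2.09 and low on the right at 0.173, among Trsp knockout values of 0.244 and 0.155.

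That library was the highest of its group 5' of the UGA and the lowest 3' of it, but only the 5' value stood apart. The 3' gap to the nearest of the 5 wild type libraries was 0.310 of their log2 range. Dixon's critical value is 0.71. Its 5' density was 3.78-fold the mean of the other two Trsp wild type libraries, the highest such value of 19 genes, whose median was 1.14, with Selenok next at 2.93. Its 3' density was 0.557-fold that mean, the 3rd lowest of 12 genes, whose median was 0.936. In rna-seq, Trsp wild type replicate 2 held Gpx1 at 0.927-fold, near the median of 0.949. Nothing in the labels says whether libraries of the same number in the 2 assays came from the same liver. The origin of the high 5' value was not tested.

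Because the 3' density is the product of the mRNA level, the 5' density per mRNA and the 3'/5' ratio, its change is the sum of theirs on the log2 scale. Without Secisbp2 the sum was -2.64 for mRNA, -0.82 for 5' density over mRNA and 0.52 for the ratio, giving -2.94. Without Trsp it was -2.76, -1.02 and -1.66, giving -5.43. The mRNA terms were alike to within 0.12, and of the 2.49 by which the knockouts differed 3' of the UGA, 2.18 came from the ratio. Without Trsp wild type ribo-seq replicate 2 the Trsp terms were -2.76, -0.38 and -2.58, giving -5.72, and the difference between knockouts was 2.77, with 0.12 from mRNA, -0.44 from 5' density over mRNA and 3.10 from the ratio. With all libraries, only the mRNA terms passed a test of their own.

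**Figure D3:**
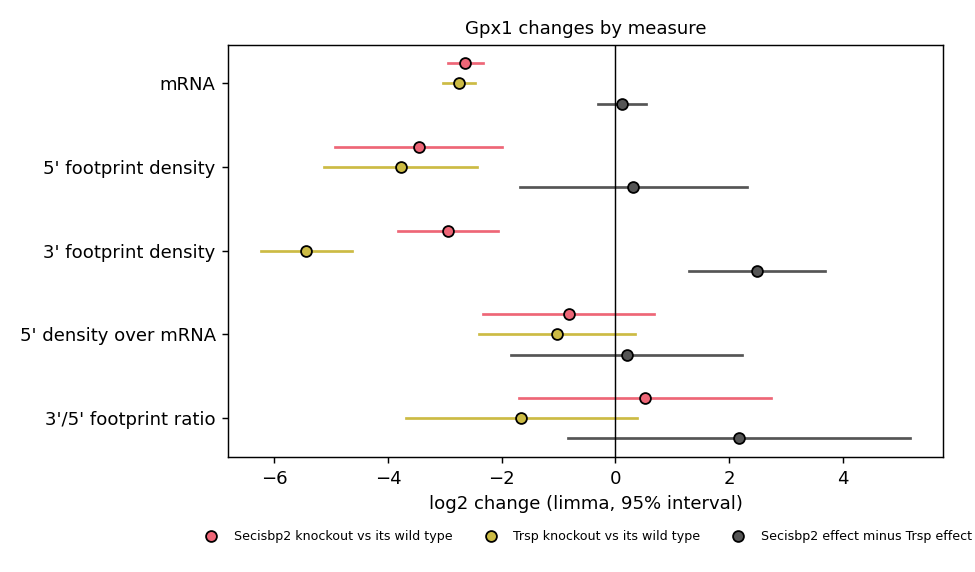
Fitted log2 changes of Gpx1 with 95% intervals for 5 measures, in each knockout against its wild type and as the Secisbp2 effect minus the Trsp effect. The knockout changes lie close together for mRNA, at -2.64 and -2.76, and apart for the 3' density, at -2.94 and -5.43.

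Gpx1 belongs to a family of peroxidases with a UGA codon, with Gpx4, which reduces lipid peroxides in membranes, Gpx3, which is secreted into plasma, and Gpx2, known from the gut epithelium. In the Secisbp2 comparison 2 of the 4 mRNAs fell, Gpx1 and Gpx4, and 2 did not pass, beside 10 of 20 mRNAs tested that fell and 4 that rose. Gpx4 mRNA was 577 and 501 RPKM in Secisbp2 wild type and 210 and 187 RPKM in Secisbp2 knockout, a change of -1.44 (limma adjusted p = 6.28e-05). That call was lost with both wild type groups pooled as control (-0.85, limma adjusted p = 0.0646). In the Trsp comparison Gpx1 alone of the 4 fell, beside 14 of the 20 tested. There Gpx4 mRNA was 233, 262 and 329 RPKM in wild type and 354 and 338 RPKM in knockout, a value of 0.35 that did not pass (limma adjusted p = 0.0631). The sign of that Gpx4 value depended on the control, since it was -0.64 against the wild type of the Secisbp2 colony (limma adjusted p = 0.00813). It rose to 0.48 without Trsp wild type rna-seq replicate 3 (limma adjusted p = 0.00783) and to 0.85 with libraries scaled to the median of the other selenoproteins (limma adjusted p = 0.00174). For Gpx4 mRNA the difference between the knockout effects was -1.78 (limma adjusted p = 0.000207), where that of Gpx1 was 0.12. Gpx4 mRNA also differed between the wild types, higher by 0.98 in the Secisbp2 colony (limma adjusted p = 0.000566), where that of Gpx1 differed by -0.04. The -1.78 therefore includes a difference between the controls.

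Gpx2 mRNA rose in Trsp knockout livers (limma adjusted p = 1.91e-06), from 0.0472, 0 and 0.0817 RPKM in wild type, which is 1, 0 and 2 reads, to 11.2 and 18.9 RPKM. In the Secisbp2 colony it lay between 1.23 and 3.44 RPKM in all 4 libraries. Gpx3 mRNA lay between 1.02 and 1.95 RPKM in all 9 libraries, with a log2 value of -0.30 without Secisbp2 and -0.0049 without Trsp, neither of which passed, although the latter came to 0.50 with scaled libraries (limma adjusted p = 0.0257). Without Secisbp2 wild type rna-seq replicate 1 the former was -0.56 (limma adjusted p = 0.0113), and without replicate 2 Gpx2 was -0.75 (limma adjusted p = 0.0467). Gpx1 was thus the most abundant peroxidase mRNA of the 4 in every wild type library, whereas in Trsp knockout its 298 and 316 RPKM lay below the 354 and 338 RPKM of Gpx4.

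Past the UGA, 2 of the 3 peroxidases tested, Gpx1 and Gpx4, fell in each knockout, and Gpx3 did not pass. That share is below those of all genes tested, of which 9 of 12 fell without Secisbp2 and 10 of 12 without Trsp. Gpx4 3' density changed by -2.94 without Secisbp2 and by -2.76 without Trsp, with a difference of -0.18 (limma adjusted p = 0.752). For Gpx1 the corresponding difference, given above, passed. The 3'/5' ratio of Gpx4 changed by -1.82 without Secisbp2 (limma adjusted p = 0.0241) and by -3.19 without Trsp (limma adjusted p = 0.000158), where the values of Gpx1 were 0.52 and -1.66. The first of these Gpx4 calls was lost without Secisbp2 wild type replicate 1, either Secisbp2 knockout library or Trsp wild type replicate 1 (limma adjusted p from 0.0600 to 0.137). The ratio of Gpx3, whose footprint densities are low, changed by -1.33 without Trsp (limma adjusted p = 0.0250). Its 5' side held 2, 1 and 1 reads in Trsp wild type and 2 and 6 reads in Trsp knockout. That call was lost with a pseudocount of 0.1 RPKM (limma adjusted p = 0.0889). It was also lost without either Trsp knockout library (limma adjusted p = 0.0793 and 0.0911). Whether the genes differ from each other in these changes was not tested.

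**Figure D4:**
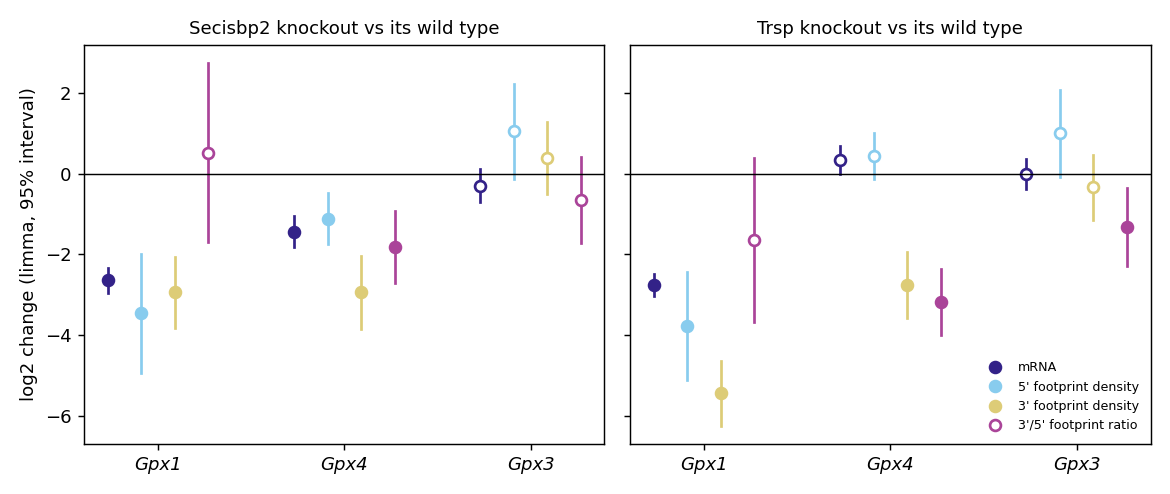
Fitted log2 changes with 95% intervals for Gpx1, Gpx4 and Gpx3 in each knockout against its wild type, for mRNA, both footprint densities and the 3'/5' ratio, with filled points for an adjusted p under 0.05. The mRNA of Gpx1 is low in both panels at -2.64 and -2.76, while that of Gpx4 is at -1.44 and 0.35, and Gpx2 is left out because its Trsp wild type libraries held 0 to 2 mRNA reads.

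Gpx1, Selenow, Selenoh and Msrb1 are known as mRNAs that respond to the selenium supply. All 4 fell in both knockouts, where 10 of the 20 mRNAs tested fell without Secisbp2 and 14 without Trsp. They had a median log2 change of -1.45 without Secisbp2, beside -0.39 over the 20 mRNAs tested, and of -1.18 without Trsp, beside -0.66. Selenow, a small thioredoxin-like protein, changed by -1.73 and -1.76, Selenoh, a nuclear redox protein, by -1.17 and -0.61, and Msrb1, a methionine sulfoxide reductase, by -0.48 and -0.60. With scaled libraries Msrb1 came to -0.091 in each knockout (limma adjusted p = 0.649 and 0.584) and Selenoh to -0.098 without Trsp (limma adjusted p = 0.584), none of which passed. The 3' densities of all 4 also fell in both, with medians of -2.03 and -3.69, beside -2.29 and -3.18 over the 12 genes tested, of which 9 and 10 fell. The 3' call of Msrb1 in the Secisbp2 comparison was lost without Secisbp2 wild type replicate 1 (limma adjusted p = 0.0965) or knockout replicate 2 (limma adjusted p = 0.158), and with scaled libraries (limma adjusted p = 0.0950). Of the 5' densities, those of Gpx1 and Selenow fell in both knockouts and those of Selenoh and Msrb1 did not pass, a share near that of the 20 genes tested, of which 9 fell without Secisbp2 and 11 without Trsp. With scaled libraries Msrb1 rose to 0.60 without Secisbp2 (limma adjusted p = 0.0388). The 5' stretch of Selenow is as short as 6 nt, and its call in the Secisbp2 comparison was lost without either Secisbp2 wild type library or knockout replicate 1 (limma adjusted p from 0.0801 to 0.137), and its calls in both with scaled libraries (limma adjusted p = 0.158 and 0.0898). The 3'/5' ratio passed for none of the 4 without Secisbp2 (median -0.40, beside -0.65 over all tested) and fell for 2, Selenow and Msrb1, without Trsp (median -1.65, beside -1.82), where 3 and 9 of the 12 genes tested fell. That of Msrb1 without Secisbp2, at -2.001, passed when only the 2 groups compared entered the fit (limma adjusted p = 0.00190). The ratio of Selenow lost its call without either Secisbp2 wild type library, Trsp wild type replicate 1 or 2, or Trsp knockout replicate 2 (limma adjusted p from 0.0575 to 0.214).

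Across the 9 rna-seq libraries the mRNAs most like Gpx1, by the root mean square difference of log2 values centred on each gene's mean, were Selenow (0.48), Selenop, the selenium transport protein of plasma (0.52), and Selenoh (0.94), of 19 compared. The spread of Gpx1 itself within groups was 0.13. For the 5' density the nearest were Selenow (1.21), Dio1, the deiodinase that activates thyroid hormone (1.23), and Selenop (1.24), where the spread of Gpx1 within groups was 0.75, more than the gaps between these genes. For the 3'/5' ratio they were Dio1 (0.84), Selenop (0.97) and Selenof (0.98), of 11 compared, all under the within-group spread of 1.07 for Gpx1. Over the 4 group means the order of the ratio changed to Dio1 (0.29), Gpx3 (0.51) and Selenop (0.52), with Selenof at 0.92. These are descriptions over libraries that share genotypes, with no test.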

How the data were processed

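The authors deposited RPKM values for 23 selenoprotein genes in 3 tables, per the file headers, for rna-seq reads and for footprints on either side of the UGA codon. The submitters' processing notes name Bowtie 0.12.8 and the mm9 build. How reads were counted, the windows and the annotation are not given in the sources used here. Symbols were matched to a GRCm38.p6 gene table for names alone (11 by symbol, 12 by synonym), and no coordinates are given. RPKM steps gave whole reads, within 1e-06, for 312 of 312 footprint and 203 of 203 RNA values above 0, and library totals within 0.01 of a whole number. A date in a cell of the 3' table (Selenof, Secisbp2 wild type replicate 1) was read back as 263.871 RPKM, or 521 reads.

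Values were tested as log2(RPKM + 0.5), a scale that understates the change of low genes, for genes that averaged 1 RPKM or more, with limma 3.58.1 in R 4.3.3, all 4 groups sharing an estimate of the spread. Two-sided p-values were adjusted by the Benjamini-Hochberg method over all genes tested in a table, with a threshold of 0.05. 5' density over mRNA was the interaction of assay and genotype. Exact permutation tests and exact intervals used scipy 1.17.1 in Python 3.11.15. Copied reads could not be told apart here by molecular identifiers, so the intervals take each read as independent. They cover counting error at most, and not the spread between livers. The fits were also run on simulated data with independent noise, a minority of genes changed and no outlying library. That run does not cover a table in which most genes move, or a library such as Trsp wild type ribo-seq replicate 2. Alternatives were other pseudocounts, no filter, scaling, other controls, fewer groups in the fit, the replicate block and leaving out each library. Text names Gpx1, the glutathione peroxidases, the selenium-responsive mRNAs and the 3 nearest genes per measure. Gpx1, the lists and the tests were chosen with earlier results of these data known.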

Additional observations from a re-analysis of the deposited data

Results flagged for a closer look

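The effects of the knockouts on Gpx1 3' density differed by a log2 value of 2.49 (SE 0.538, limma adjusted p = 0.00508), with the Trsp knockout the lower, at 24.4 and 26.0 RPKM against 173 and 117 RPKM in the Secisbp2 knockout. The value was 2.77 without Trsp wild type ribo-seq replicate 2 (limma adjusted p = 0.000103). Trsp wild type ribo-seq replicate 2 was the highest of the 5 wild type libraries in Gpx1 5' density on the log2 scale. Its gap to the nearest other library was 0.730 of the whole range, above Dixon's 95% critical value of 0.71 for 5 samples. Chance alone gives such a gap in about 1 of 20 groups. The check covered knockout and wild type libraries for mRNA, both footprint densities and the 3'/5' ratio, and flagged this gap alone. A single flag is thus less unusual than the rate per group.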

How the results depend on the processing

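The falls of Gpx1 mRNA, 5' density and 3' density in both knockouts, and the difference between the knockout effects on 3' density, kept their direction and side of the threshold in every alternative run. Others changed sign or side when each library was left out in turn. The mRNA difference between knockout effects ran from -0.067 to 0.30, that of the 5' density from -0.33 to 0.72 and that of the 5' density over mRNA from -0.44 to 0.60. The wild type comparison ran from -0.67 to 0.38 for the 5' density, from -0.29 to 0.27 for the 3' density, from -0.63 to 0.42 for the 5' density over mRNA and from -0.67 to 0.81 for the 3'/5' ratio. The 3'/5' ratio without Trsp ran from -2.58 to -1.10, and its difference between knockout effects from 1.62 to 3.10, each past the threshold only without Trsp wild type ribo-seq replicate 2. The cause was not tested. Leave-one-out permutation tests had 4 against 4 or 3 against 5 libraries, with adjusted p from 0.0381 to 0.0476 for mRNA and both densities. Each p-value was the smallest that its arrangements can give. Without overlap of knockout and wild type libraries this outcome was fixed, so it adds nothing to the full tests. With libraries scaled to the median of the other selenoproteins, the median change over all mRNAs moved by 0.39 without Secisbp2 and 0.51 without Trsp, and those of the footprint densities by 0.58 and 0.61. Gpx1 mRNA then changed by -2.25 in each, its difference between knockout effects was -0.0065 and its wild type difference 0.12. Of the mRNAs 6 then rose and 8 fell without Secisbp2 (4 and 10 unscaled), and 3 rose and 8 fell without Trsp (1 and 14). For the 5' density 8 rose and 5 fell (0 and 9), and 3 rose and 4 fell (1 and 11), and for the 3' density without Secisbp2 1 rose and 8 fell (0 and 9). Deviations of same-numbered wild type and knockout libraries from their group means had correlations from -0.44 to 0.67 over the genes tested. In groups of 2 libraries these deviations mirror each other, so the check can neither show nor exclude a pairing. The numbers were not read as a pairing, and the replicate block is an alternative. With the replicate block, Gpx1 3' density differed by 0.14 between the wild types, and mRNA changed by -2.64 and -2.72. Under the block Selenoh 5' density passed at -1.64 without Secisbp2 and at -1.41 without Trsp (0.026 as reported), and the Msrb1 3'/5' ratio passed without Secisbp2 (limma adjusted p = 0.0227). Over the alternatives, genes called ranged for the 5' density without Trsp from 7 to 13 (12 as reported) and between wild types from 1 to 6 (3). They ranged for the 3' density difference from 3 to 6 (3) and between wild types from 0 to 3 (3). For the 5' density over mRNA they ranged from 0 to 3 (1), 1 to 4 (2), 0 to 3 (0) and 1 to 3 (2) for Secisbp2, Trsp, their difference and the wild types, and for the 3'/5' ratio from 0 to 5 (3), 6 to 14 (9), 4 to 10 (4) and 0 to 6 (1). In Trsp knockout replicate 1 the ratio rests on 63 and 64 reads.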
